A study of Arabidopsis thaliana with 6 samples.

Results

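The enzymes described here are ascorbate peroxidases and glutathione reductase of Arabidopsis thaliana, selected by gene locus, with earlier results of these data known. The list held 5 genes, SAPX (AT4G08390), TAPX (AT1G77490), APX1 (AT1G07890), APX3 (AT4G35000) and GR1 (AT3G24170). A probe set assigned to 1 gene was at hand for 3 of them, SAPX, TAPX and GR1, each with 1 probe set, among 22746 probe sets tested. APX1 and APX3 were not analysed here. The gene table gives the symbol GR1 to a second locus, AT3G52115, a gamma response gene. The probe set used here belongs to AT3G24170, which the table describes as glutathione-disulfide reductase.

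The samples were pools of whole Columbia 0 seedlings, 7 days old when treated, with the seedlings of 24 wells sown with 5 seeds each in every pool. The 3 compound samples received a synthetic amide at 5 µM for 24 h, and the 3 control samples received its solvent, dimethyl sulfoxide (DMSO), alone. The compound joins 2-(2,4-dichlorophenoxy)propanoic acid, through an amide bond, to an aniline ring that bears an isobutyrylamino and a methoxy group. No mutant or transgenic line was named. RNA of each pool was read on an Affymetrix ATH1 array, and the deposited values were log2 RMA expression values. The labels call the samples biological replicates 1 to 3 in each group without saying what was grown apart. The p-values thus weigh a difference only against the spread between these samples. With the replicate number as a block, they weigh it against the spread of the differences within numbers. In the limma fits this spread is not a gene's own alone, because it is drawn toward a value shared by all probe sets. By its title the study is about cell death driven by photorespiratory hydrogen peroxide and how auxin signalling acts on it, and the comparison asks whether transcripts of enzymes that remove hydrogen peroxide differ after the compound.

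Ascorbate peroxidases are haem enzymes that reduce hydrogen peroxide to water with ascorbate as the electron donor. The oxidised ascorbate is reduced again by monodehydroascorbate and dehydroascorbate reductases, and glutathione reductase uses NADPH to restore the glutathione spent on the way, so that the steps form the ascorbate-glutathione cycle. In Arabidopsis the peroxidases are spread over several compartments. SAPX encodes the stromal enzyme of the chloroplast, which is also sent to mitochondria, and TAPX encodes the enzyme bound to the thylakoid membrane. APX1 is cytosolic and APX3 sits in the peroxisomal membrane. GR1 encodes the glutathione reductase of cytosol and peroxisomes, and a separate gene encodes the organellar enzyme. Photorespiration releases hydrogen peroxide in peroxisomes, where catalase is the main enzyme that removes it.

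SAPX was the only one of the 3 measured genes with a difference between treatments that passed a test, and it did so only where arrays of the same replicate number were compared with each other. Its level was 1.40-fold higher with the compound, by nearly the same amount in each of the 3 replicate numbers. TAPX was 1.09-fold lower and GR1 1.04-fold higher by their means, and neither passed the test with or without the replicate number in the fit. Both varied more between replicate numbers than between treatments, as did 84.2% of all probe sets.

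In the DMSO arrays of replicates 1, 2 and 3, SAPX stood at 8.28, 8.56 and 8.16 on the log2 scale. In the compound arrays it stood at 8.77, 9.02 and 8.65. Every compound array lay above every DMSO array, with a gap of 0.093 between the lowest compound and the highest DMSO value. The group means were 8.81 ± 0.19 after the compound and 8.33 ± 0.21 after DMSO (SD, n = 3 each). Over all probe sets, 5.37% had all compound arrays above all DMSO arrays. The log2 difference was 0.48 (SE 0.15), with a 95% interval of 0.13 to 0.83, in the linear model of limma with treatment as the only term. This missed the threshold of 0.05 after Benjamini-Hochberg adjustment over all tested probe sets (adjusted p = 0.576, unadjusted p = 0.0147 in limma), where 0.343% of the probe sets were called and 5.36% had an unadjusted p below 0.05.

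Within replicate numbers the differences of SAPX were 0.49, 0.46 and 0.50, with an SD of 0.020, against SDs of 0.19 and 0.21 within the groups. Replicate 2 was the highest and replicate 3 the lowest array of both groups. With the replicate number as a block in limma, the SE was 0.073 and SAPX rose (adjusted p = 0.0169), with a 95% interval of 0.31 to 0.66. That SE draws on the variance shared over all probe sets as well as on the SAPX differences. Over the 15 listed genes described below, the SE with the block lay between 0.073 and 0.093. The fit with the block called 3.80% of all probe sets and called 1.83% upward. The call was kept without the replicate 2 pair (adjusted p = 0.0404 in limma), but not without the replicate 1 pair (adjusted p = 0.0758) or the replicate 3 pair (adjusted p = 0.134). The size was nearly the same in these 3 fits, at 0.49, 0.48 and 0.48. A larger rise than that of SAPX was measured in 1.99% of all probe sets.

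TAPX, the thylakoid-bound peroxidase gene, stood at 9.59, 9.02 and 9.43 in DMSO replicates 1, 2 and 3. In the compound arrays it stood at 9.40, 8.82 and 9.43. The groups overlapped, and in both of them replicate 2 was the lowest array. The means were 9.22 ± 0.35 after the compound and 9.35 ± 0.29 after DMSO (SD, n = 3 each). The log2 difference was -0.13 (SE 0.22, adjusted p = 0.999 in limma), with a 95% interval of -0.66 to 0.40. The differences within numbers were -0.19, -0.20 and 0.0033. With the block the SE was 0.081 and the 95% interval -0.32 to 0.062 (adjusted p = 0.516 in limma), which is 0.801-fold to 1.04-fold of the DMSO level. A fall to 0.801-fold is thus within the interval, and so is no difference.

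GR1, the cytosolic and peroxisomal glutathione reductase gene, stood at 8.74, 9.23 and 8.27 in DMSO replicates 1, 2 and 3. In the compound arrays it stood at 8.87, 9.25 and 8.30. In both groups replicate 2 was the highest and replicate 3 the lowest, and the groups overlapped over almost their whole range. The means were 8.81 ± 0.48 after the compound and 8.74 ± 0.48 after DMSO (SD, n = 3 each). The log2 difference was 0.062 (SE 0.31, adjusted p = 0.999 in limma), with a 95% interval of -0.69 to 0.82. Within numbers GR1 was higher with the compound in 3 of 3 pairs, by 0.13, 0.022 and 0.028, a pattern shared by 21.2% of all probe sets. With the block the SE was 0.075 and the 95% interval -0.12 to 0.24 (adjusted p = 0.775 in limma), which is 0.923-fold to 1.18-fold of the DMSO level.

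**Figure D1:**
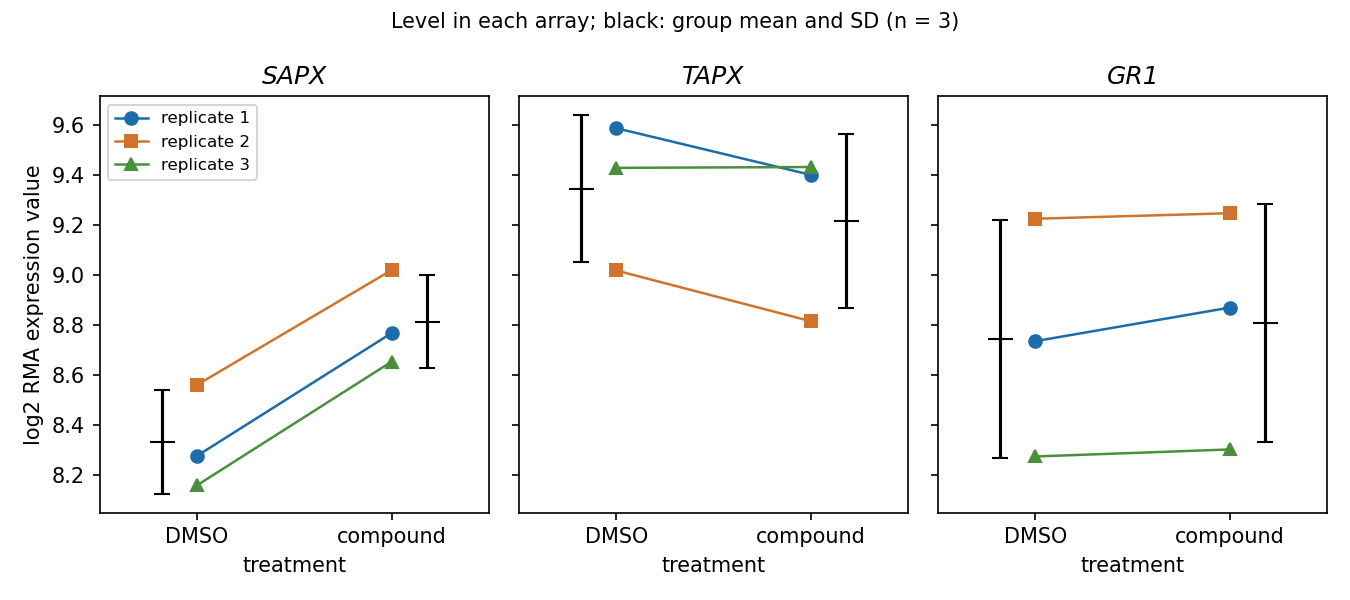
Log2 RMA expression value (vertical axis) of SAPX, TAPX and GR1 in each DMSO and compound array, with a line joining arrays of the same replicate number and black bars for the group mean and SD (n = 3). The 3 SAPX lines rise in parallel by 0.46 to 0.50, while the TAPX lines change by -0.20 to 0.0033 and the GR1 lines by 0.022 to 0.13.

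The numbers differed more than the treatments for TAPX and GR1. The means of the 3 replicate numbers, each over 1 DMSO and 1 compound array, spanned 0.58 for TAPX and 0.95 for GR1 on the log2 scale, against treatment differences of -0.13 and 0.062. For SAPX they spanned 0.38 against a difference of 0.48. Over all probe sets the span between numbers exceeded the treatment difference in 84.2%. The span is taken over 3 means of fewer arrays each, so it tends to be the larger value by construction. The genes did not follow the numbers in the same way. In replicate 2, SAPX and GR1 were at their highest, at 8.79 and 9.24, and TAPX was at its lowest, at 8.92. In replicate 3, SAPX and GR1 were at their lowest, at 8.41 and 8.29. Over the 6 arrays, which share their replicate numbers and treatments, Pearson's r was 0.598 between SAPX and GR1, -0.683 between SAPX and TAPX and -0.766 between TAPX and GR1. What the arrays of a number had in common was not stated in the labels.

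**Figure D2:**
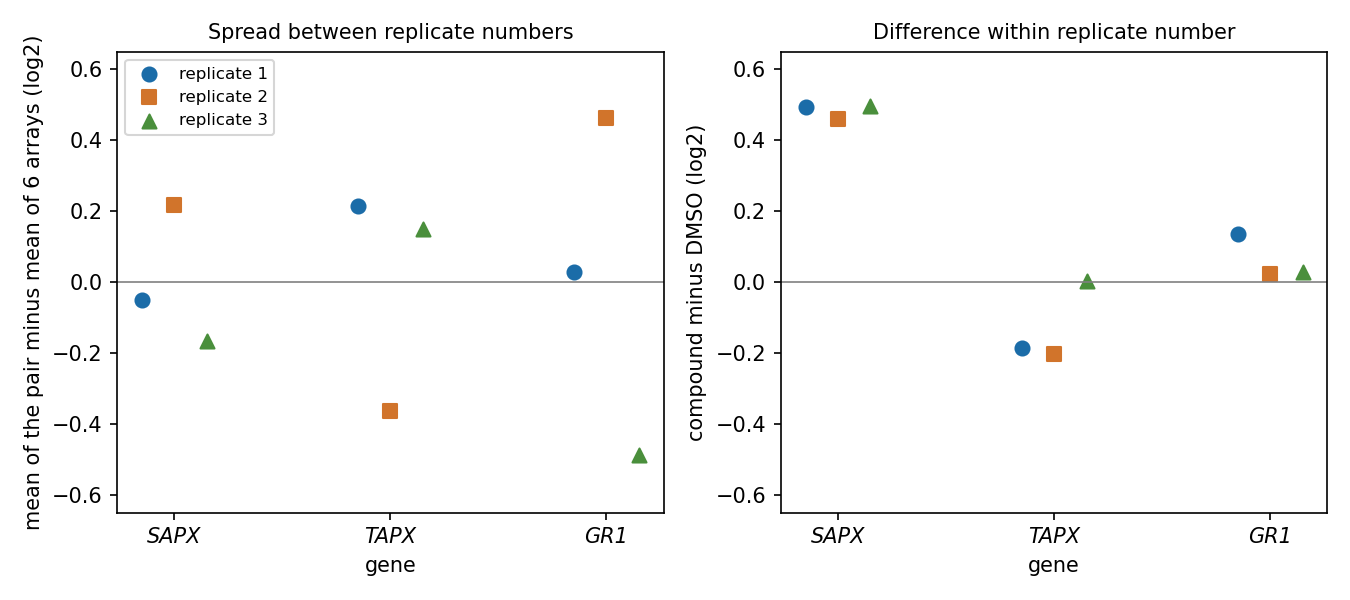
Left, the mean of the DMSO and compound arrays of each replicate number minus the mean of all 6 arrays, on the log2 scale. Right, compound minus DMSO within each replicate number; the 3 SAPX points lie between 0.46 and 0.50, and those of TAPX and GR1 between -0.20 and 0.13.

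The stromal and the thylakoid-bound enzyme were contrasted by the SAPX value minus the TAPX value within each array, which is read only as a change between treatments, since levels of different probe sets are not on a common scale. This within-array difference was -1.31, -0.46 and -1.27 in DMSO replicates 1, 2 and 3. It was -0.63, 0.21 and -0.78 in compound replicates 1, 2 and 3. DMSO replicate 2 lay above compound replicates 1 and 3, so the groups overlapped. SAPX changed by 0.61 more than TAPX on the log2 scale, and an exact two-sided permutation test over the 6 arrays gave p = 0.3, where 0.1 is the smallest p that 3 against 3 can give. Within numbers the changes were 0.68, 0.66 and 0.49, all in favour of SAPX, with an SD of 0.10. An exact two-sided sign-flip test over the 3 pairs gave p = 0.25, the smallest it can give. Neither exact test can reach 0.05 with these arrays, so they do not decide whether the stromal and the thylakoid-bound enzyme responded differently. Leaving out 1 array moved the 0.61 to between 0.31, without compound replicate 2, and 0.89, without DMSO replicate 2.

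Other genes of hydrogen peroxide removal and of steps that serve it were read from a list of 58 genes. Of these, 15 were measured, the 3 genes above included. The 15 hold ascorbate synthesis genes and a superoxide dismutase chaperone gene, whose products do not remove hydrogen peroxide themselves. No catalase or dehydroascorbate reductase gene was among the 15, so those enzymes were not read here. Of the 15, 0 were called without the block (limma, 1 with an unadjusted p below 0.05) and 1, SAPX, rose with it. Over all probe sets 0.343% were called without the block, 5.36% had an unadjusted p below 0.05, and 1.83% were called upward with the block, so 1 gene of 15 is no result about the list. The other 12 lay between -0.13 and 0.15, with a median log2 difference of 0.0084, against 0.014 over all probe sets. None of the 12 was called by limma in either fit, 0 had an unadjusted p below 0.05 without the block, and the lowest adjusted p was 0.412 with the block.

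The second glutathione reductase gene, listed as GR (AT3G54660), encodes the enzyme of chloroplasts and mitochondria. It stood at 10.24, 10.05 and 9.76 in DMSO replicates 1, 2 and 3 and at 10.21, 9.97 and 9.73 in the compound arrays. Its log2 difference was -0.043, with an adjusted p of 0.852 in limma with the block. Both groups had replicate 1 highest and replicate 3 lowest, so GR followed the numbers in another order than GR1. ATMDAR2, a monodehydroascorbate reductase gene, stood at 9.62 ± 0.15 after the compound and 9.60 ± 0.19 after DMSO (SD, n = 3 each).

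PRXIIF, the mitochondrial type II peroxiredoxin gene, had a log2 difference of 0.15 (SE 0.11 without and 0.079 with the block). It was higher with the compound in 3 of 3 pairs, as were 21.2% of all probe sets. CCS, the copper chaperone of superoxide dismutase, had a log2 difference of -0.13 (SE 0.14 and 0.076) and was lower in 3 of 3 pairs, as were 16.5% of all probe sets. Their adjusted p with the block were 0.412 and 0.483 in limma, so neither was called. AT3G11630, a chloroplast peroxiredoxin gene that removes peroxides in the stroma beside the ascorbate peroxidases, had a log2 difference of -0.051 (SE 0.073 with the block). GLDH, whose enzyme carries out the last step of ascorbate synthesis, had one of 0.067 (SE 0.078 with the block). Of the other ascorbate synthesis genes, GME stood at 11.07 ± 0.12 after the compound and 11.06 ± 0.13 after DMSO (SD, n = 3 each). VTC4 varied most between numbers of the 15 genes, with number means of 8.32, 8.08 and 7.24, and its groups had the same mean of 7.88. AT4G33670, an L-galactose dehydrogenase gene, had a log2 difference of 0.0073. In the chloroplast thiol system, the type II peroxiredoxin gene AT3G52960 had a log2 difference of 0.044, NTRC, which encodes an NADPH-dependent thioredoxin reductase, one of 0.017, and SRX, which encodes the sulfiredoxin that repairs overoxidised peroxiredoxins, one of -0.0015. The number means of the 15 genes spanned more than the treatment difference in 14, with SAPX the exception. Over all probe sets this held in 84.2%, so it is no result about the list.

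**Figure D3:**
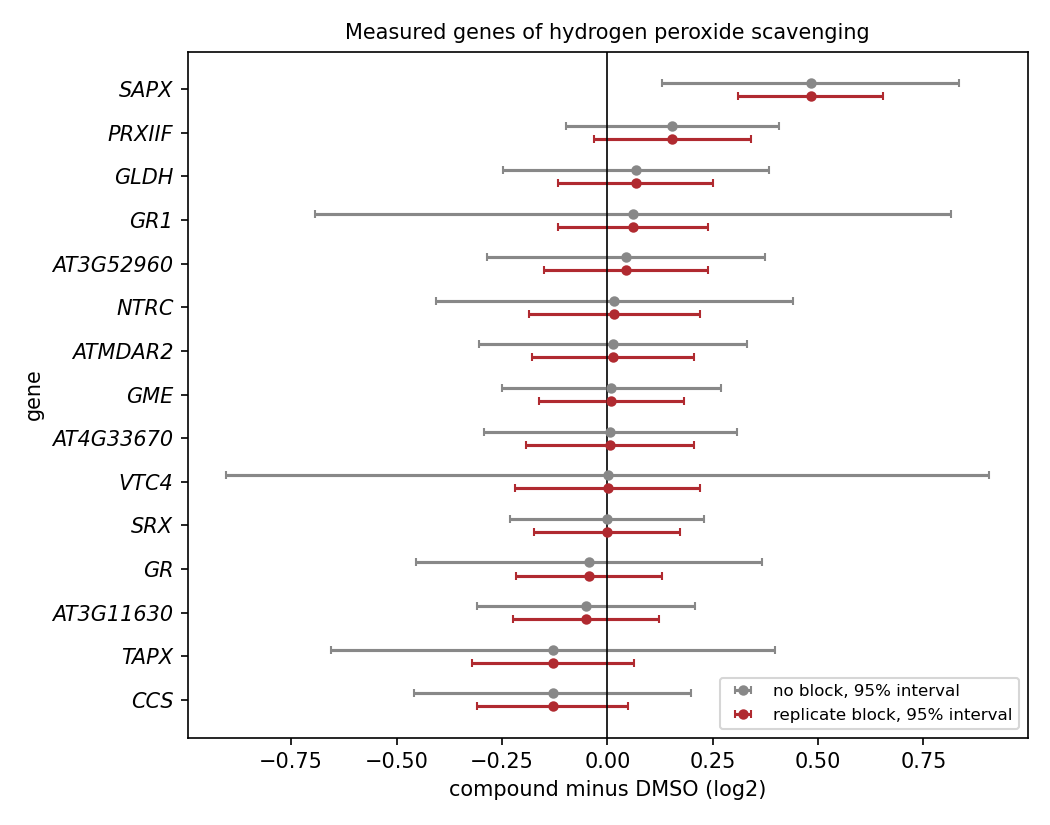
Log2 difference, compound minus DMSO (horizontal axis), of the 15 measured genes of the hydrogen peroxide scavenging list, ascorbate synthesis genes included. The 95% intervals are from limma without (grey) and with (red) the replicate number as a block. SAPX is at 0.48, and the other 14 lie between -0.13 and 0.15.

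Whole seedlings hold leaf and root tissue, and in such bulk samples fewer cells of a type and less RNA per cell cannot be told apart. Of 15 green tissue markers 2 were measured. RCA, the Rubisco activase gene, ranged from 13.76 to 13.91 with DMSO and from 13.75 to 13.89 with the compound. LHCB4.1, a light-harvesting antenna gene, ranged from 13.34 to 13.46 and from 13.30 to 13.47. The differences of these chloroplast protein genes were -0.036 and -0.027, and neither was called in either fit. Of 14 root markers 3 were measured. PYK10, the root beta-glucosidase gene, ranged from 12.63 to 13.00 with DMSO and from 12.59 to 12.81 with the compound. The root hair expansin genes EXPA7 and EXPA18 ranged from 6.94 to 7.98 and from 6.87 to 7.67 with DMSO, and from 5.36 to 5.56 and from 5.42 to 5.47 with the compound. Both fell, in limma without the block (adjusted p of 0.042 and 0.027) and with it (adjusted p of 0.0038 and 0.0017). PYK10, at -0.096, was not called in either fit. Over all probe sets 0.343% were called without the block and 3.80% with it. The table of values holds no detection calls, so the presence of each tissue was not tested beyond these levels. The part of root hair cells in the SAPX difference was not tested.

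Among 5666 other single-gene probe sets whose mean reached 6 on the log2 scale, the 3 most like each gene over the 6 arrays were picked by Pearson's r. For SAPX these were AT3G19200 (r = 0.99), AT5G49950 (r = 0.989) and SDH1-1 (r = 0.988), a flavoprotein subunit gene of mitochondrial succinate dehydrogenase. Their log2 differences were 0.82, 0.26 and 0.20. AT3G19200 rose with the block (adjusted p = 0.00276 in limma), where 1.83% of all probe sets were called upward. It was not called without the block (adjusted p = 0.662 in limma). AT5G49950 and SDH1-1 were not called in either fit, with adjusted p of 0.134 and 0.237 in limma with the block. For TAPX they were AT3G26070 (r = 0.998), AT4G32590 (r = 0.993) and AT1G73470 (r = 0.991), with log2 differences of -0.039, -0.097 and -0.074. For GR1 they were AT1G64850 (r = 0.997), AT3G11510 (r = 0.996) and ARA12 (r = 0.994), a subtilisin-like protease gene, with differences of 0.022, 0.032 and 0.077. None of these last 6 was called in either fit. With 6 arrays and this many candidates such values of r are a description of these arrays. Genes picked for following a member also tend to share its treatment difference, so the call of AT3G19200 is no separate result.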

How the data were processed

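The 6 arrays came as 1 deposited table of log2 values. Per the submitters' processing notes the authors used RMA, and which software ran it is not given in the sources used here. RMA sets the arrays to a common distribution, so a shift of all transcripts would not show. The number of arrays limits the precision. Of 22810 probe sets, 64 controls were left out, and of the 22746 tested 13513 had 1 gene, 503 several and 8730 none in the platform annotation. Names were updated through the NCBI gene table of TAIR10.1, and no coordinates or sequences were used.

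Groups and replicate numbers came from the sample titles. Using lmFit and eBayes, limma 3.58.1 (R 4.3.3) compared compound with DMSO on all tested probe sets, with Benjamini-Hochberg adjustment over all of them and a threshold of 0.05. The step was tested on simulated data. Deviations from the group means correlated at 0.727, 0.728 and 0.743 between arrays of the same number, all above the minimum of 0.1 set for calling samples paired, so the fit with the number as a block is given beside the main fit. The titles' numbers and this check are the basis of the pairing. Genes named were the 3 measured members, list genes called in either fit or among the 3 largest differences in each direction, and the 3 closest patterns per member. The other measured list genes are named beyond this rule to describe the list, after their values were seen. The members and lists were chosen with earlier results of these data known. Alternatives were a fixed and a random block, median centring, a filter at a log2 mean of 4, a variance trend, and leaving out arrays or pairs.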

Additional observations from a re-analysis of the deposited data

How the results depend on the processing

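The SAPX difference was positive in all 14 alternatives run, but most of them could not turn its sign. Every compound array lay above every DMSO array, so leaving out arrays or pairs keeps the difference positive. The blocks, the filter and the variance trend leave its size at 0.48. The SAPX difference ranged from 0.38 to 0.60 without single arrays and kept missing the threshold in limma without a block. It passed with the replicate block (0.48, adjusted p = 0.0169), with a random block for the number (0.48, adjusted p = 0.034, at a correlation of 0.594 between arrays of a number) and with the block but without the replicate 2 pair (0.49, adjusted p = 0.0404). In those 3 settings 1 of the 15 listed genes was called, against 0 without the block. TAPX lay between -0.29 and 0.072 and was above 0 only without compound replicate 2. GR1 lay between -0.17 and 0.31 and was below 0 without DMSO replicate 3 (-0.17) and without compound replicate 2 (-0.16). Leaving out single arrays moved the SAPX minus TAPX change between 0.31 and 0.89, its lowest value being that without compound replicate 2. Over all probe sets 78 were called, against 865 with the replicate block, 491 with the random block, 0 to 76 without single arrays, and 516, 743 and 205 with the block but without the pairs 1, 2 and 3. The block leaves 2 residual degrees of freedom, and 1 without a pair.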
